A study of Arabidopsis with 22 samples.

Results

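The pollen coat genes described here are 8 of the 25218 Arabidopsis transcripts in the deposited expression table: GRP19 (AT5G07550), GRP17 (AT5G07530), GRP14 (AT5G07510), EXL4 (AT1G75910), EXL5 (AT1G75920), EXL6 (AT1G75930), ATA27 (AT1G75940) and the tapetal gene AT1G66850. They were chosen by their RPKM in lux-1 against Col-0 at ZT13 and are named by locus. Their values in those 6 libraries are therefore given as a description, without a test. Tests compared only groups outside that comparison. The 8 genes were, however, chosen with earlier results of these data known, so the other groups may not have been unseen. The estimate of spread behind the tests came from all libraries, including those 6, so the tests are not fully independent of the choice. All 8 were in the table, and all 8 exceeded the filter of a mean above 0.3 RPKM in at least 1 group. Each did so in lux-1 at ZT13 and also in acd6-1lux-1 at ZT13, a group that was tested. RPKM scales the reads of a transcript by its length and by the mapped reads of the library, so levels can be compared between genes.

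The 22 RNA-seq libraries came from 25-day-old plants of 4 genotypes grown at 22 °C in equal days and nights of 12 h and harvested 1 h (ZT1) or 13 h (ZT13) after dawn. The genotypes were lux-1, which carries a nonsense point mutation in the clock gene LUX ARRHYTHMO (LUX), its wild type Col-0, the double mutant acd6-1lux-1, and acd6-1, a mutant with constitutive defense. The double mutant was selected in the F2 of a cross. There were 3 libraries a group, except 2 each for acd6-1lux-1 and acd6-1 at ZT13. Thus 11 libraries carried lux-1, and the 11 that did not are called LUX libraries. Each lux-1 plant line rests on a single allele, and the labels call acd6-1 "acd6-1-0".

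The tapetum is the innermost cell layer of the anther and nourishes developing pollen. Early on it supplies enzymes and precursors for the exine, the sculptured outer pollen wall. Later it fills with lipid bodies, breaks down and leaves its lipids and proteins on the grain surface as the pollen coat, which is needed for adhesion and hydration on the stigma. The GRP genes encode oleosin-domain glycine-rich proteins of the coat, of which GRP17 is needed for prompt hydration. EXL4, EXL5 and EXL6 encode extracellular lipases of the GDSL family found in the coat. ATA27 encodes a beta-glucosidase of tapetal cells, and AT1G66850 encodes a small protein of the lipid transfer type. In rosette leaves these genes are normally silent.

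The libraries held 14458079 to 20134373 reads, of which 10306552 to 16224975 mapped. The share mapped was 79.8 to 81.6% in 21 libraries and 60.5% in acd6-1lux-1 ZT1 replicate 3. The 4 leaf marker genes listed summed to 16788 to 61454 RPKM over the libraries. LUX transcript itself stood at 71.4, 81.0 and 75.6 RPKM in lux-1 at ZT13, against 6.10, 6.28 and 6.84 RPKM in Col-0. At ZT13 it was at 70.8 and 65.3 RPKM in acd6-1lux-1, against 8.17 and 6.10 RPKM in acd6-1. A nonsense mutation need not lower its transcript, so these levels show a difference between genotypes but do not test the mutation.

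The pollen coat genes were at or near 0 in all 11 LUX libraries and above that range, to very different extents, in 9 of the 11 lux-1 libraries. Whole reads were recovered from RPKM and the mapped reads of each library. Summed over the 8 genes, 3103 reads were counted in the 11 lux-1 libraries and 35 in the 11 LUX libraries, but 2124 of the 3103 came from the 3 lux-1 ZT13 libraries whose values chose the genes. In the libraries outside lux-1 and Col-0 at ZT13, the sums were 979 reads over 8 lux-1 libraries and 27 reads over 8 LUX libraries. No gene had more than 3 reads in any LUX library, and 61 of these 88 values were 0. In RPKM, 3 reads, the limit that a count of 0 allows, were worth 0.113 to 0.942 depending on the gene and library. All 7 libraries with 50 or more reads over the 8 genes carried lux-1, and 4 of them were not lux-1 ZT13 libraries. The LUX library with the most had 5. Replicate 3 of lux-1 at ZT1, with 1 read, and replicate 3 of acd6-1lux-1 at ZT1, with 3 reads, lay within the range of the LUX libraries.

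**Figure D1:**
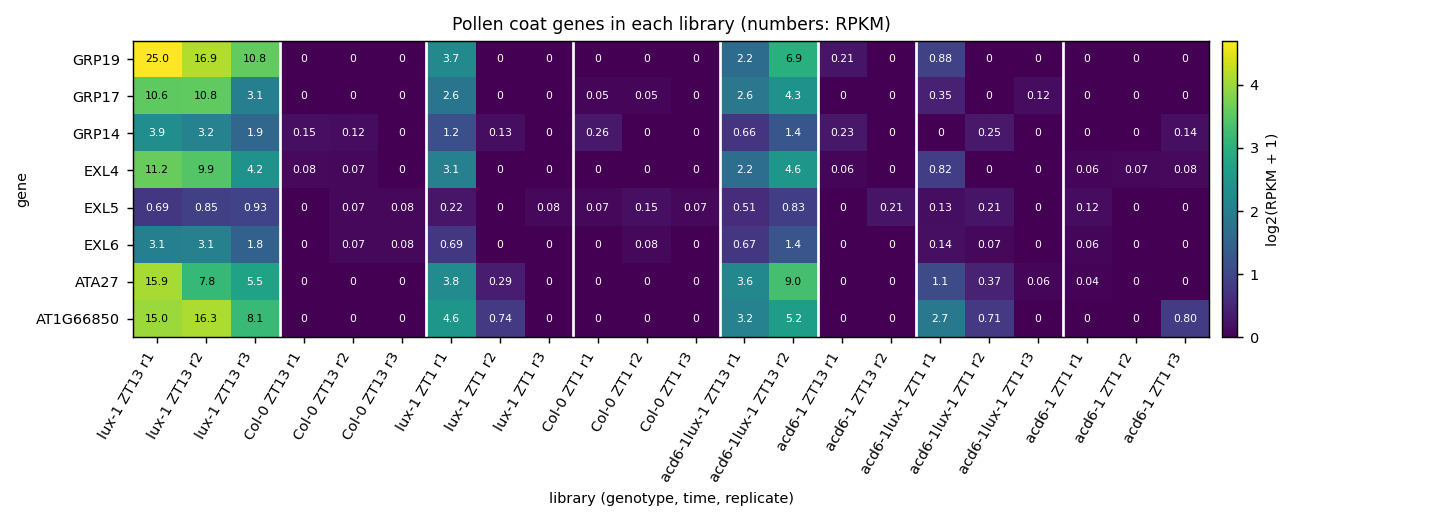
RPKM of the 8 pollen coat genes (rows) in each of the 22 libraries (columns), coloured by log2(RPKM + 1), with white lines between groups. The 3 lux-1 ZT13 libraries, both acd6-1lux-1 ZT13 libraries and lux-1 ZT1 replicate 1 hold signal for all 8 genes, while no value exceeds 0.80 in a LUX library.

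Among the oleosin genes, GRP19 had 25.0, 16.9 and 10.8 RPKM in lux-1 at ZT13, while it was at 0 in all 3 Col-0 libraries. GRP17 had 10.6, 10.8 and 3.10 RPKM in lux-1 at ZT13 and likewise no read in Col-0. GRP14 was lower, with 3.92, 3.24 and 1.95 RPKM in lux-1, against 0.15, 0.12 and 0 RPKM in Col-0. For each of the 3 genes the lowest lux-1 library lay above the highest Col-0 library. Replicate 3 was the lowest lux-1 library for all 3 genes.

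Among the lipase genes, EXL4 had 11.2, 9.86 and 4.25 RPKM in lux-1 at ZT13, against 0.083, 0.068 and 0 RPKM in Col-0. EXL6 had 3.07, 3.14 and 1.76 RPKM in lux-1, against 0, 0.068 and 0.079 RPKM in Col-0. EXL5 was the weakest of the 8, with 0.69, 0.85 and 0.93 RPKM in lux-1, against 0, 0.066 and 0.076 RPKM in Col-0. Replicate 3, which was lowest for the other 7 genes, was highest for EXL5, although its 13 reads gave a 95% Poisson interval of 0.49 to 1.58 RPKM. Such intervals cover counting error only.

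ATA27, the beta-glucosidase gene, had 15.9, 7.83 and 5.55 RPKM in lux-1 at ZT13, while AT1G66850 had 15.01, 16.3 and 8.07 RPKM. Neither had a read in Col-0 at ZT13. In total, 4 of the 8 genes had no read in the 3 Col-0 libraries. Set against 3 reads over the Col-0 group, the mean of ATA27 was at least 200-fold higher in lux-1. For GRP17 it was at least 170-fold, for GRP19 71.9-fold and for AT1G66850 51.7-fold. Such folds bound the Col-0 level only and leave out the spread of lux-1. On the log2(RPKM + 1) scale, which understates changes of low genes, the differences ran from 0.80 for EXL5 to 4.14 for GRP19. Of all 21666 genes tested, 2.08% were called higher in this comparison and 7.73% were higher without overlap between libraries, as all 8 were. Since this comparison named the genes, nothing follows from that count.

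By mean level in lux-1 at ZT13, the order was GRP19 (17.6 ± 7.10 RPKM), AT1G66850 (13.1 ± 4.44), ATA27 (9.77 ± 5.46), EXL4 (8.44 ± 3.69), GRP17 (8.16 ± 4.38), GRP14 (3.04 ± 1.00), EXL6 (2.66 ± 0.78) and EXL5 (0.82 ± 0.12; SD, n = 3). Ranges over the 3 libraries overlapped between every pair of neighbours in this order except EXL6 and EXL5. The counting method for reads matching several genes is not given in the sources used here, so reads may be divided between the related GRP genes or between the related EXL genes, and their separate levels are uncertain to that extent.

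**Figure D2:**
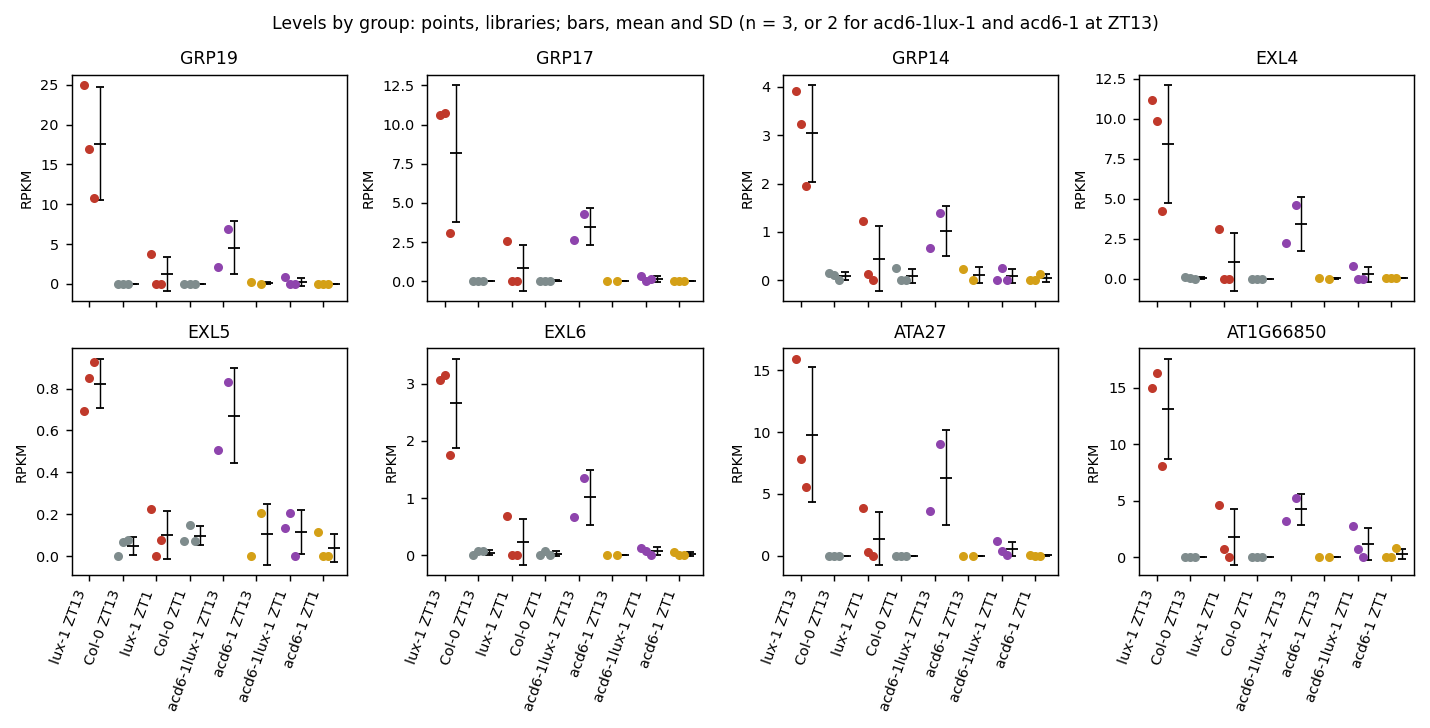
RPKM of each pollen coat gene by group, with 1 point a library and bars for the mean and SD. For most genes the points of the lux-1 ZT1 group are split, with replicate 1 well above replicates 2 and 3, and each vertical axis has its own range.

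Libraries of acd6-1lux-1 and acd6-1 at ZT13 share no sample with the comparison that named the genes, and here 7 of the 8 genes were higher in the double mutant at an adjusted p under 0.1. In this comparison 1.15% of all genes tested were called higher. Each p rests on 1 estimate of spread per gene, shared by all 8 groups. LUX groups, at or near 0 reads, mostly varied less than lux-1 groups, so the SE may understate the spread of the double mutant. With only the compared libraries fitted, 2 of the 8 passed, and the number of all genes called higher was 48 in place of 250. ATA27 had 3.60 and 9.003 RPKM in acd6-1lux-1 and no read in acd6-1 (log2 difference 2.76 ± 0.55 SE, limma, adjusted p = 0.017). Its mean was at least 97.2-fold higher, set against 3 reads over the acd6-1 group. GRP17 had 2.65 and 4.32 RPKM in acd6-1lux-1 and no read in acd6-1, at least 54.6-fold by the mean (2.14 ± 0.49, limma, adjusted p = 0.043). For both genes each double mutant library lay above each acd6-1 library.

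EXL6 had 0.67 and 1.35 RPKM in acd6-1lux-1 and was at 0 in acd6-1 (0.99 ± 0.23, limma, adjusted p = 0.044). EXL5 had 0.51 and 0.83 RPKM in acd6-1lux-1, against 0 and 0.21 RPKM in acd6-1 (0.60 ± 0.14, limma, adjusted p = 0.049). The remaining lipase gene, EXL4, had 2.24 and 4.63 RPKM in acd6-1lux-1, against 0.064 and 0 RPKM in acd6-1 (2.05 ± 0.52, limma, adjusted p = 0.075). All 3 of these lipase genes thus passed, although EXL5 was again the weakest.

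AT1G66850 had 3.25 and 5.23 RPKM in acd6-1lux-1 and no read in acd6-1 (2.36 ± 0.60, limma, adjusted p = 0.082). GRP19 had 2.16 and 6.87 RPKM in acd6-1lux-1, against 0.21 and 0 RPKM in acd6-1 (2.18 ± 0.56, limma, adjusted p = 0.087). GRP14, with 0.66 and 1.39 RPKM in acd6-1lux-1 against 0.23 and 0 RPKM in acd6-1, did not pass (0.85 ± 0.30, limma, adjusted p = 0.28). The median difference of the 8 genes was 2.09, against 0.02 over all genes tested. All 8 were higher without overlap, as were 23.6% of all genes tested.

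Replicate 2 held the higher level of all 8 genes in acd6-1lux-1 at ZT13, and the number of genes passing depended on individual libraries. Leaving out replicate 2 of acd6-1lux-1 at ZT13 gave 0, and leaving out replicate 1 or 2 of acd6-1 at ZT13 gave 1 or 2, where the lone library left is taken to vary like the other groups. Leaving out replicate 1 of acd6-1lux-1 at ZT13 gave 4, as did leaving out Col-0 replicate 2 or 3 at ZT13 or any 1 of the Col-0 libraries at ZT1, which enter only through the shared estimate of spread. An edgeR quasi-likelihood test on the recovered whole reads called 2 of the 8.

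At ZT1 the signal in lux-1 lay in 1 library. Over the 8 genes, lux-1 replicates 1, 2 and 3 had 226, 10 and 1 reads, against 4, 4 and 1 reads in Col-0 replicates 1, 2 and 3. In lux-1 replicate 1, AT1G66850 stood at 4.60 RPKM, ATA27 at 3.83 and GRP19 at 3.69, all at 0 in the 3 Col-0 libraries. EXL4 was at 3.14 RPKM and GRP17 at 2.57 RPKM in that library. In replicate 2 only AT1G66850 (0.74 RPKM), ATA27 (0.29) and GRP14 (0.13) had any read, and in replicate 3 only EXL5 had one.

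None of the 8 passed between lux-1 and Col-0 at ZT1 (limma, adjusted p 0.16 to 1), where 13.2% of all genes tested were called higher. The unadjusted p was under 0.05 for 1 gene, AT1G66850 (log2 difference 1.10 ± 0.49), and the edgeR test on recovered reads called 2, EXL4 and ATA27. No gene was higher without overlap, against 24% of all genes tested. Without lux-1 ZT1 replicate 1 the differences of 6 genes were between −0.08 and 0, and those of ATA27 and AT1G66850 were 0.18 and 0.40. Without lux-1 ZT1 replicate 3, in turn, 2 genes passed.

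In the acd6-1 background at ZT1 the libraries of 1 group were again unequal. Over the 8 genes, acd6-1lux-1 replicates 1, 2 and 3 had 66, 17 and 3 reads, against 5, 1 and 5 reads in acd6-1. AT1G66850 was the most abundant, at 2.75, 0.71 and 0 RPKM in acd6-1lux-1, against 0, 0 and 0.80 RPKM in acd6-1, where the last value is 3 reads. ATA27 had 1.14, 0.37 and 0.060 RPKM in acd6-1lux-1, against 0.038, 0 and 0 RPKM in acd6-1, and was the only gene of the 8 higher without overlap, as were 23.8% of all genes tested. GRP19 and EXL4 had reads in replicate 1 alone of the double mutant.

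None of the 8 passed between acd6-1lux-1 and acd6-1 at ZT1 (limma, adjusted p 0.38 to 0.92), where 22.8% of all genes tested were called higher. None had an unadjusted p under 0.05 and the edgeR test called 0. The same held without acd6-1lux-1 ZT1 replicate 3, the library with the low mapped share. The lux-1 effect in the acd6-1 background minus that in the Col-0 background at ZT1 ran from −0.49 to 0.10 over the 8 genes, with SE of 0.16 to 0.70, and passed for 0 genes (limma, adjusted p 0.64 to 0.77, unadjusted p under 0.05 for 0, edgeR 0). In this difference 16% of all genes tested were called in either direction.

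**Figure D3:**
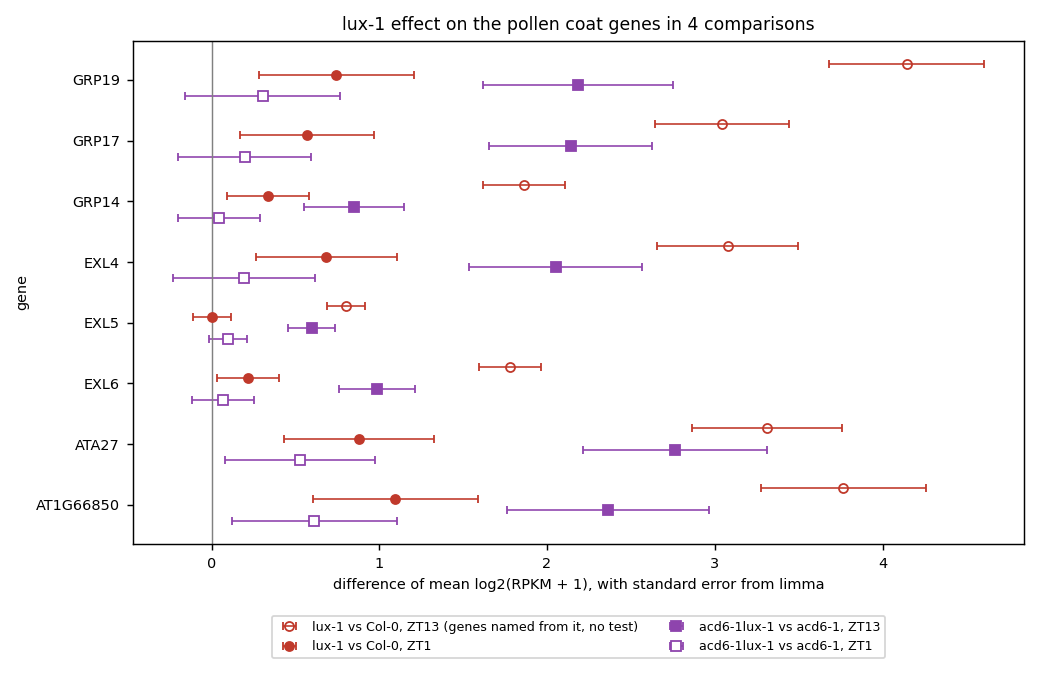
Differences of mean log2(RPKM + 1) with standard errors for each pollen coat gene in the lux-1 against Col-0 and acd6-1lux-1 against acd6-1 comparisons at ZT13 and ZT1. Values at ZT1 lie between 0.0009 and 1.10, those of acd6-1lux-1 against acd6-1 at ZT13 between 0.60 and 2.76, and the open circles of lux-1 against Col-0 at ZT13 carry no test.

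Averaged over the 3 comparisons that did not name the genes, that is lux-1 against Col-0 at ZT1 and acd6-1lux-1 against acd6-1 at ZT1 and ZT13, the lux-1 effect was positive and passed for all 8. In that average 20% of all genes tested were called higher. It was 1.39 ± 0.28 for ATA27 (limma, adjusted p = 0.0020), 1.36 ± 0.31 for AT1G66850 (0.0047) and 1.08 ± 0.29 for GRP19 (0.014), and lowest for EXL5, at 0.23 ± 0.07 (0.028). The edgeR test called 6 of the 8, missing GRP14 and EXL5. How many of all genes it called, in this average and in its 3 comparisons, is given under the dependence on processing. For all 8 the largest of the 3 differences was that at ZT13 in the acd6-1 background. GRP17, for example, had 0.57 and 0.20 at ZT1 in the Col-0 and acd6-1 backgrounds, and 2.14 at ZT13. Since no gene passed in either ZT1 comparison, the average does not show an effect at both times or in both backgrounds.

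The genes were also higher at ZT13 than at ZT1 in the double mutant. ATA27 averaged 6.30 ± 3.82 RPKM at ZT13 (SD, n = 2) and 0.52 ± 0.56 RPKM at ZT1 (SD, n = 3), a log2 difference of 2.22 ± 0.50 (limma, adjusted p = 0.0018). GRP17 averaged 3.49 ± 1.18 RPKM at ZT13 and 0.16 ± 0.18 RPKM at ZT1 (1.94 ± 0.45, limma, adjusted p = 0.0020). All 8 passed, with AT1G66850 having the highest adjusted p, 0.042, while 27.2% of all genes tested were called higher. Leaving out replicate 2 of the double mutant at ZT13 gave 5, and leaving out its replicate 3 at ZT1 gave 7. Plants of the 2 times were separate samples, so time of day and any difference in development between those plants cannot be told apart. In lux-1, where the values at ZT13 named the genes, GRP19 averaged 17.6 ± 7.10 RPKM at ZT13 and 1.23 ± 2.13 RPKM at ZT1 (SD, n = 3 each), given without a test.

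The 8 genes varied together from library to library. Over the 22 libraries, Pearson's r of log2(RPKM + 1) was 0.87 to 0.993 for the 28 pairs (median 0.965), and within the 11 lux-1 libraries it was 0.86 to 0.99. The values share libraries and many zeros, so r is only a description. In the 7 libraries with 50 or more reads over the set, EXL4 held rank 4 each time, with 11.7 to 15.7% of the summed RPKM, whereas the ranks of GRP19 (13.7 to 29.7%) and ATA27 (11.4 to 26.8%) changed. GRP19 led in all 3 lux-1 ZT13 libraries, ATA27 in both acd6-1lux-1 ZT13 libraries, and AT1G66850 in lux-1 ZT1 replicate 1 and acd6-1lux-1 ZT1 replicate 1.

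The genes lie in chromosomal clusters, apart from AT1G66850. EXL4, EXL5, EXL6 and ATA27 are consecutive entries of the table on chromosome 1, and GRP14, GRP17 and GRP19 fall within a run of GRP genes on chromosome 5. Of the genes beside both runs, some were expressed in Col-0 and others, such as AT1G75870 and AT5G07570, were at or near 0 in all groups. EXL3, next to EXL4, averaged 17.2 RPKM at ZT13 in lux-1, against 20.1 RPKM in Col-0. At ZT1 EXL3 rose in lux-1, with 32.4 RPKM against 17.9 RPKM in Col-0 (0.82 ± 0.19, limma, adjusted p = 0.0077), and in acd6-1lux-1, with 21.5 RPKM against 12.7 RPKM in acd6-1 (0.68 ± 0.19, limma, adjusted p = 0.013). In acd6-1lux-1 at ZT13 it did not pass (0.64 ± 0.23, limma, adjusted p = 0.28). At ZT13 SKP1, which follows ATA27 in the table and encodes a subunit of SCF ubiquitin ligases, averaged 331 RPKM in lux-1 plants and 340 RPKM in Col-0 plants. EXL1 averaged 3.73 RPKM at ZT13 in lux-1, against 2.91 RPKM in Col-0, and was thus above EXL4 to EXL6 in Col-0. EXL1 rose in acd6-1lux-1 at ZT1, with 1.42 RPKM against 0.52 RPKM in acd6-1 (0.65 ± 0.21, limma, adjusted p = 0.033).

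In the oleosin run, GRP20, beside GRP19, had 9.56, 7.997 and 3.76 RPKM in lux-1 at ZT13, against 0.19, 0.15 and 0.18 RPKM in Col-0. GRP20 was also higher in acd6-1lux-1 than acd6-1 at ZT13, with 1.17 and 2.70 RPKM against 0 and 0 (1.503 ± 0.37, limma, adjusted p = 0.067), as was GRP18 with 1.01 and 1.39 RPKM against 0 and 0 (1.13 ± 0.14, limma, adjusted p = 0.00017). GRP16, the gene between GRP17 and GRP19, had 12, 23 and 5 reads in lux-1 at ZT13 and none in Col-0. It had no read in acd6-1lux-1 or acd6-1 at ZT13, although in the double mutant GRP17 had 56 and 96 reads. AT5G07580, a few genes past the run, averaged 56.5 RPKM in both lux-1 and Col-0 at ZT13. In the acd6-1 background it averaged 36.5 RPKM in acd6-1lux-1, against 25.4 RPKM in acd6-1, at ZT13 (0.50 ± 0.15, limma, adjusted p = 0.16), and it rose at ZT1, with 55.2 RPKM against 24.1 RPKM (1.18 ± 0.12, limma, adjusted p = 5.3e-06). Of the 8 genes of the oleosin list that were tested, 4 (GRP17, GRP18, GRP19 and GRP20) were higher in acd6-1lux-1 at ZT13 and 0 lower. Over all genes tested, 1.15% were called higher there. GRP17 and GRP19 are pollen coat genes already counted above, and edgeR called 1 gene of this list as higher in that comparison.

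**Figure D4:**
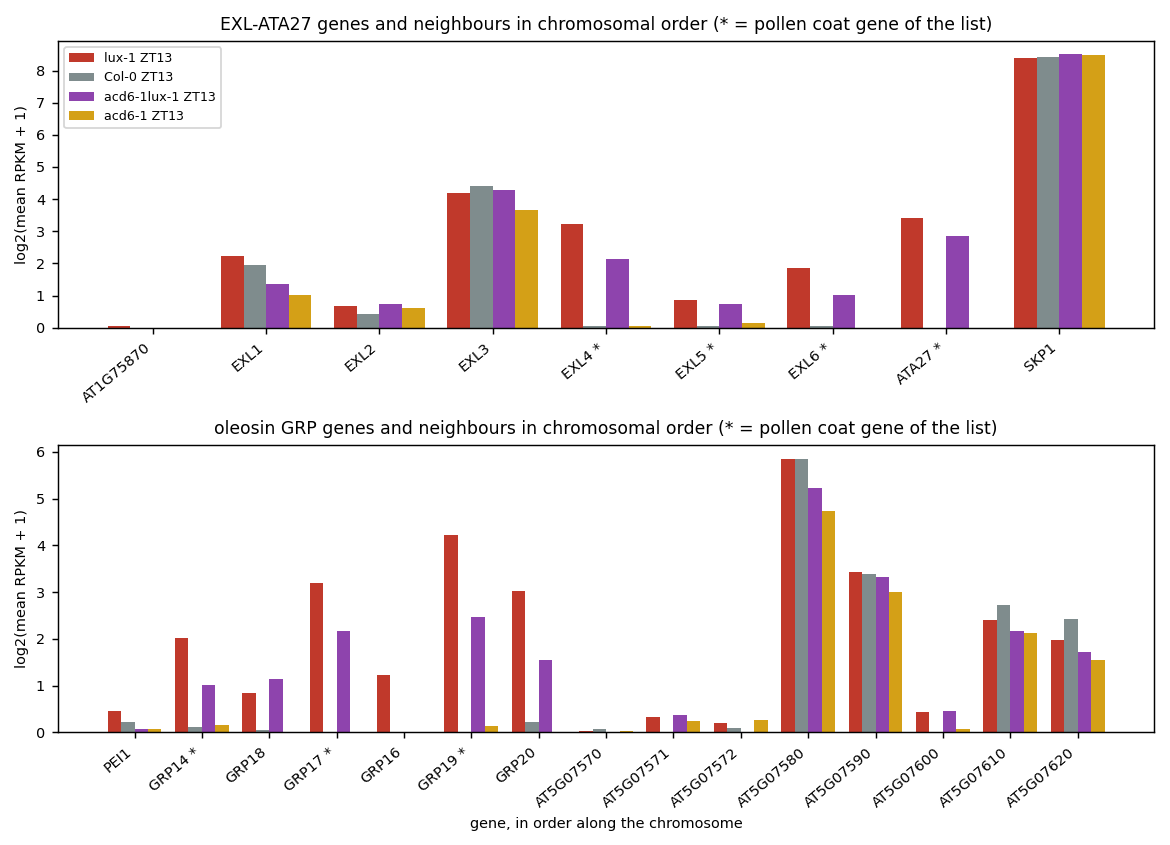
Mean level, as log2(mean RPKM + 1), of the pollen coat genes (asterisks) and the neighbouring genes of the table in chromosomal order, in lux-1, Col-0, acd6-1lux-1 and acd6-1 at ZT13. EXL4 to ATA27 and GRP14 to GRP20 show bars in the lux-1 genotypes with almost none in Col-0 and acd6-1, except GRP16, which has no bar in acd6-1lux-1, whereas EXL3, SKP1 and AT5G07580 are high in all 4 groups.

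Over the 22 libraries, the 15 genes outside the set whose log2(RPKM + 1) was most like the mean of the 8 had Pearson's r of 0.90 to 0.975. These libraries include those of lux-1 at ZT13, which chose the 8 genes and hold their highest mean levels, so r is a description. Spearman's rank correlation for the same 15 was 0.56 (GRP20) to 0.88 (SHT), and 0.66 for AT1G20130. AT1G20130 was first (r = 0.975), followed by GRP20 (r = 0.962), AT2G03740, AT1G23570, AT1G26720, AT1G68875 and AT5G17340. AT1G20130 averaged 5.79 RPKM in lux-1 at ZT13 and did not exceed 0.15 RPKM in any LUX library. The 15 also held the tapetum genes CYP98A9, LTP12, ATA20 and SHT, with CYP98A9 and SHT acting in the making of pollen-wall phenolamides. LUX itself was number 14 (r = 0.904), listed by RefSeq as PCL1. AT1G23660, GGPS2 and AT1G44224 complete the list.

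Other genes of the tapetum and of flowers differed in how closely they followed the pollen coat genes. All lists were made with earlier results of these data known, so counts over them are a description and no independent support. Fewer cells of a type and less RNA per cell cannot be told apart in these whole-plant libraries. LTP12, ATA7, TSM1 and SHT, which encode lipid transfer, lipid-transfer-like, methyltransferase and spermidine acyltransferase proteins of the tapetum, were singled out after their values were seen, so that their levels are a description with no test. Summed over these 4, the level was 34.9, 9.15 and 12.8 RPKM in lux-1 at ZT13, against at most 0.30 RPKM in Col-0. It was 11.4 and 34.9 RPKM in acd6-1lux-1 at ZT13 and 0 in acd6-1. At ZT1 it was 12.9, 1.27 and 0.27 RPKM in lux-1, against 0 to 0.21 RPKM in Col-0, with replicate 1 highest as for the pollen coat genes. In acd6-1lux-1 at ZT1 it was 7.04, 6.07 and 0.27 RPKM, against 0 in the 3 acd6-1 libraries, so that replicate 2 was close to replicate 1, unlike the 17 and 66 reads of the pollen coat genes there.

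Other tapetum genes were expressed with functional LUX. ATA20, a glycine-rich protein gene of the tapetum, had 3.65 to 32.1 RPKM in lux-1 libraries, against 2.96 to 5.98 RPKM in LUX libraries. LAP3, which is needed for exine formation, had 2.01 to 7.29 RPKM in lux-1 libraries, against 2.74 to 5.002 RPKM in LUX libraries. DYT1, TDF1, MS1 and MYB99 of the same list did not exceed 0.46 RPKM in any library, with or without lux-1. Over the whole tapetum list of 30 genes, 26 were tested. In acd6-1lux-1 at ZT13, 3 passed as higher (LTP12, SHT and CYP98A9) and 0 as lower, where 1.15% of all genes tested were called higher. In acd6-1lux-1 at ZT1, 2 (LTP12 and QRT3) passed as higher and 1 (SWEET8) as lower, and in lux-1 at ZT1, 1 (QRT3) passed as higher. These 2 and 1 of 26 are below the 22.8% and 13.2% of all genes tested that were called higher at ZT1 in acd6-1lux-1 and in lux-1. The share of all genes called lower is not given here, so nothing follows from SWEET8. The edgeR test called 1 as higher in acd6-1lux-1 at ZT13, 4 as higher and 1 as lower in acd6-1lux-1 at ZT1, and 1 as higher in lux-1 at ZT1. Medians over the list, in the same order, were 0.79, 0.43 and 0.27, against 0.02, 0.10 and 0.08 over all genes tested.

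Genes of exine synthesis did not share 1 pattern. PKSA and TKPR1, a polyketide synthase and a reductase of sporopollenin synthesis and the most abundant of the list, were expressed in all 22 libraries. PKSA had 3.10 to 13.8 RPKM in lux-1 libraries, against 3.63 to 7.82 RPKM in LUX libraries, and TKPR1 had 3.48 to 14.5 RPKM, against 4.34 to 9.01 RPKM. Some other genes of the list were abundant in only a few libraries, partly other ones than for the pollen coat genes. MS2, a fatty acyl reductase of the exine, had 82, 0 and 0 reads in lux-1 ZT13 replicates 1 to 3, where GRP17 had 235, 233 and 67. In acd6-1lux-1 at ZT13 MS2 had 2 and 25 reads, where GRP17 had 56 and 96. In acd6-1lux-1 at ZT1 the order turned, with 11, 69 and 1 reads of MS2 where GRP17 had 8, 0 and 2. Thus lux-1 ZT13 replicate 2 held pollen coat transcripts without MS2, and acd6-1lux-1 ZT1 replicate 2 held MS2 with 17 reads over all 8 pollen coat genes.

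ACOS5, an acyl-CoA synthetase of the same pathway, and A6, a tapetal glucanase-like gene, gave the same picture. ACOS5 had 141, 0 and 8 reads and A6 had 221, 0 and 6 reads in lux-1 at ZT13. In acd6-1lux-1 ZT1 replicate 2 they had 95 and 214 reads. Transcripts of ACOS5 and A6 were not restricted to lux-1 plants either. ACOS5 had 40 reads and A6 had 55 reads in acd6-1 ZT1 replicate 3, a LUX library with 5 reads over the pollen coat genes. In lux-1 at ZT1 and in acd6-1lux-1 at either time, 0 of the 8 exine genes tested passed (limma), 0 had an unadjusted p under 0.05 and edgeR called 0. Over all genes tested, 13.2% were called higher in lux-1 at ZT1, 22.8% in acd6-1lux-1 at ZT1 and 1.15% in acd6-1lux-1 at ZT13. At a share of 1.15%, and with SE of up to 0.81, 0 of 8 says little about exine genes at ZT13.

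**Figure D5:**
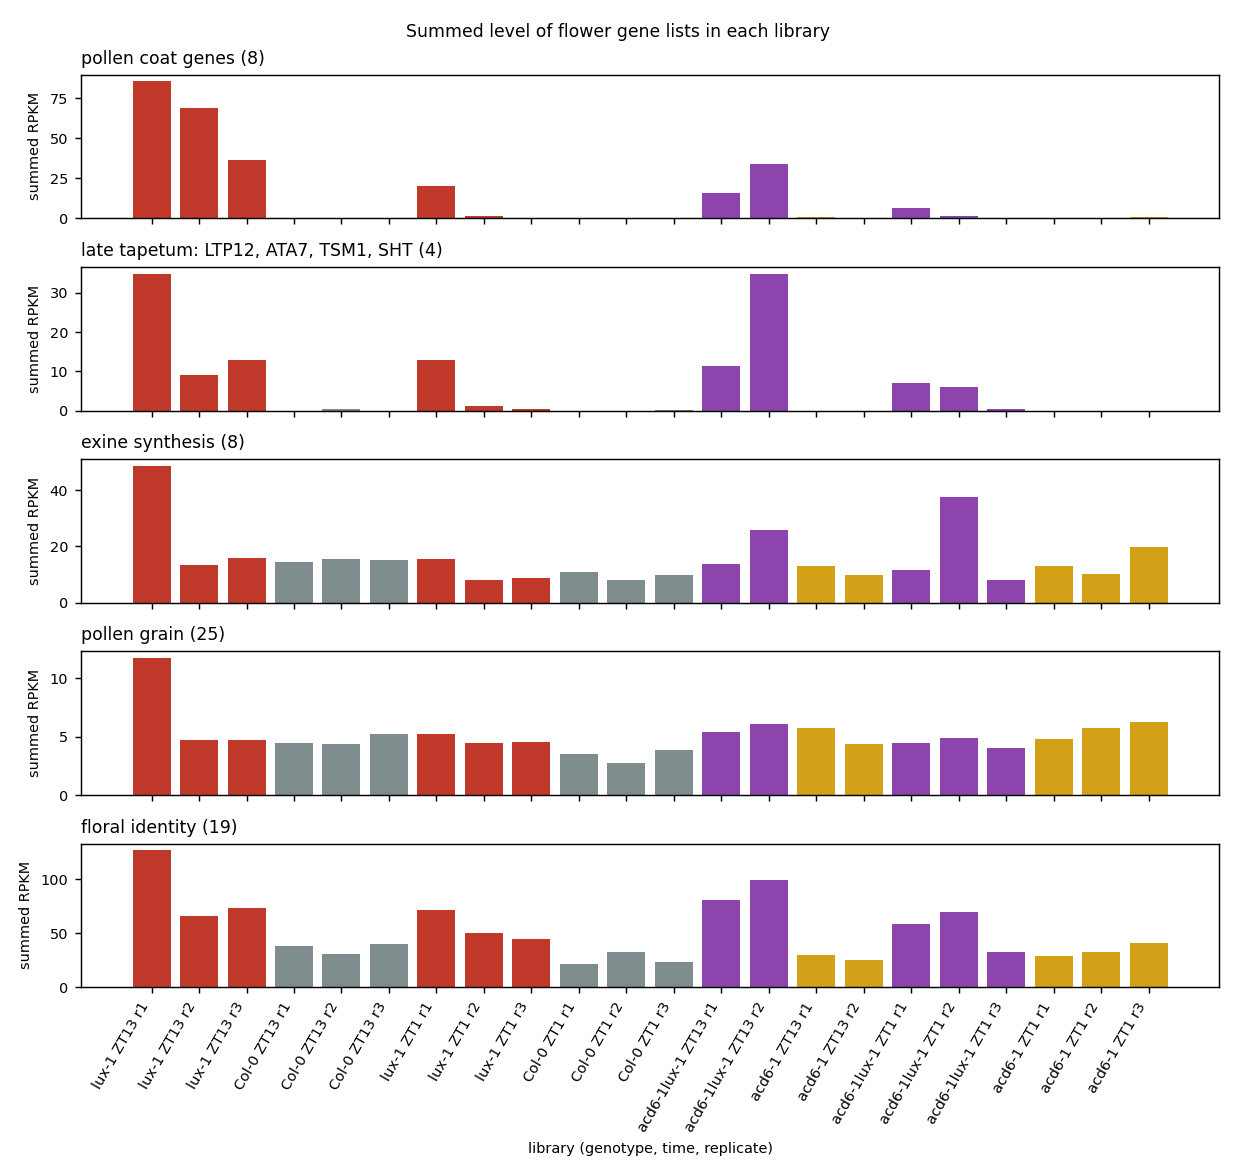
Summed RPKM of the pollen coat genes, 4 late tapetum genes, 8 exine synthesis genes, 25 pollen grain genes and 19 floral identity genes in each library. Late tapetum is a name only, since stage was not measured. The 4 late tapetum genes, chosen with their values known, have bars of at most 0.30 in LUX libraries, whereas the exine and floral identity bars are above 0 in all 22 libraries and the pollen grain bars stand out in lux-1 ZT13 replicate 1 alone, at 11.7.

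Transcripts of the pollen grain itself showed little of this. Over 25 pollen grain genes in the table, the summed level was 11.7, 4.74 and 4.72 RPKM in lux-1 at ZT13, against 4.35 to 5.26 RPKM in Col-0. The excess of lux-1 ZT13 replicate 1 held VGD1, a pollen pectin methylesterase gene, with 55, 5 and 1 reads in lux-1 and 0 in each Col-0 library at ZT13. In acd6-1lux-1 at ZT13, where the pollen coat genes were present, VGD1 and its homologue VGDH1 were at 0 in both libraries. Of 11 pollen grain genes tested, 0 passed between acd6-1lux-1 and acd6-1 at ZT13 (limma, unadjusted p under 0.05 for 1, edgeR 0). Over all genes tested 1.15% were called higher there, so 0 of 11 says little about these genes. The list's summed level there was 5.43 to 6.07 RPKM against 4.36 to 5.74 RPKM. At ZT1, 0 of the 11 were higher and 2 lower in acd6-1lux-1, and 1 was higher in lux-1. The share of all genes called lower is not given here, so nothing follows from the 2 lower. Over all genes tested, 22.8% were called higher in acd6-1lux-1 at ZT1 and 13.2% in lux-1 at ZT1.

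The summed level of floral organ identity genes was above 0 in every library. In 10 of the 11 lux-1 libraries it was above that of all libraries of the matching LUX group. Over 19 genes the summed level was 127, 66.2 and 73.2 RPKM in lux-1 at ZT13, against 30.7 to 39.9 RPKM in Col-0. In Col-0 most of it was SEP4 (mean 23.0 RPKM, against 22.4 RPKM in lux-1) and FUL (7.47 RPKM, against 25.5 RPKM in lux-1). By contrast, AP3, AG and SEP2 averaged 0.40, 0.43 and 0.19 RPKM in Col-0 at ZT13, against 2.98, 1.83 and 3.62 RPKM in lux-1. For the whole list at ZT13, the sum went as follows in the acd6-1 background. The summed level was 80.8 and 99.5 RPKM in acd6-1lux-1, against 25.4 to 29.6 RPKM in acd6-1, at ZT13. At ZT1 it was 71.4, 50.02 and 44.9 RPKM in lux-1, against 21.5 to 32.6 RPKM in Col-0, and 59.0, 70.1 and 32.6 RPKM in acd6-1lux-1, against 28.6 to 40.8 RPKM in acd6-1. The exception was acd6-1lux-1 ZT1 replicate 3, within the range of acd6-1. The order within the lux-1 ZT1 group was that of the pollen coat genes, but acd6-1lux-1 ZT1 replicate 2 exceeded replicate 1 for floral identity and lay below it for the pollen coat genes. The part of flower tissue in the results on the pollen coat genes was not tested.

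The floral identity list was made with earlier results of these data known, so its counts are a description. Of 14 floral identity genes tested, 3 passed as higher in acd6-1lux-1 at ZT13. They were FUL, a MADS-box gene of meristem and fruit (1.57 ± 0.27, limma, adjusted p = 0.0038), AG, which specifies stamens and carpels (1.64 ± 0.36, adjusted p = 0.029), and SEP1 (1.95 ± 0.42, adjusted p = 0.030). The share over all genes tested was 1.15% there. Of the same 14, 4 were higher in lux-1 at ZT1, where 13.2% of all genes tested were. In acd6-1lux-1 at ZT1, 1 was higher (FUL), below the 22.8% of all genes tested that were called higher. SHP1 was lower, but the share of all genes called lower is not given here. AP1, which specifies sepals and petals, had 5.204 and 8.58 RPKM in acd6-1lux-1 at ZT13, against 1.72 and 1.14 RPKM in acd6-1, and did not pass (1.68 ± 0.62, adjusted p = 0.32).

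The lists of flowering time and stem wax genes were likewise made with earlier results known. Among 14 genes that time flowering, 3 were higher in acd6-1lux-1 at ZT13, 5 in acd6-1lux-1 at ZT1 and 6 in lux-1 at ZT1, and 0 were lower. Over all genes tested, 1.15%, 22.8% and 13.2% were called higher in the same order. FT, the mobile flowering signal, rose in acd6-1lux-1 at ZT13 (2.58 ± 0.33, limma, adjusted p = 0.00022), and so did SOC1, a floral integrator (0.69 ± 0.11, adjusted p = 0.0028), and GI, a clock gene upstream of FT (1.95 ± 0.18, adjusted p = 5.37e-06). Of 6 stem wax genes, 3 were higher in acd6-1lux-1 at ZT13 (CER4, CYP96A15 and WSD1), 4 in acd6-1lux-1 at ZT1 (these and CER1) and 2 in lux-1 at ZT1 (CER4 and CYP96A15), and 0 were lower. CER4 and CYP96A15, genes of stem wax alcohols and ketones, rose by 1.68 to 3.84 at ZT1 and by 2.90 and 4.56 in acd6-1lux-1 at ZT13, whereas CER3 and CER6, which act in wax synthesis, passed in none of these 3 comparisons (0.15 to 0.55). The summed level of 6 late flower organ genes was at most 1.34 RPKM outside lux-1 ZT13 replicate 1, where it was 7.62 RPKM, and the 7 seed storage genes in the table summed to at most 4.11 RPKM in any library.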

How the data were processed

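RNA was sequenced from 22 libraries (TruSeq, HiSeq, single reads of 51 cycles). The submitters' notes name CASAVA and TAIR10, while aligner and counter were not given in the sources used here. The deposited RPKM values were made by the authors, scaled by transcript length and by mapped reads, and the deposited total read count and mapped share of each library came with them. The authors' own differential test was not used, nor was 1 unnamed column of values.

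RPKM times mapped reads gave whole reads for 100% of non-zero values (within 0.001 read). Lengths recovered this way were 309 to 1632 bases for the 8 genes and nearly all multiples of 3 over the table, so they are coding lengths. Locus names came from RefSeq (TAIR10.1), which matched 24867 of 25218 transcripts, and it also gave gene order.

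The test was limma 3.58.1 in R 4.3.3 on log2(RPKM + 1), in 1 model of 8 groups over all 22 libraries with a trended prior, for 21666 genes with a group mean above 0.3 RPKM. Benjamini-Hochberg adjustment ran over all of them and a gene passed at an adjusted p under 0.1. The script was tested on simulated data. edgeR 4.0.16 on recovered reads was an alternative. Other alternatives were the pseudocount, filter, scaling, spread and threshold, a replicate block and leaving out each library. Replicate separateness is stated by the study as biological.

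Named genes were the 8, the 15 most like them by Pearson's r, and, from each list, the genes with the highest RPKM. MS2, SHT, VGD1, GRP16 and other genes outside that rule were named after their values were seen. The 8 genes and all lists were chosen with earlier results of these data known. No sequence is printed.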

Additional observations from a re-analysis of the deposited data

How the results depend on the processing

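The number of pollen coat genes passing between lux-1 and Col-0 at ZT1 was 1 with a pseudocount of 0.1 and 2 with edgeR, against 0. Between acd6-1lux-1 and acd6-1 at ZT13 it was 3 with a pseudocount of 0.1, 4 with median-of-ratios scaling, 2 with only the compared libraries fitted, 4 at an adjusted p under 0.05 and 2 with edgeR, against 7. Leaving out 1 library at a time gave 0 to 2 genes for lux-1 at ZT1, 0 to 8 at ZT13 in the acd6-1 background, 6 to 8 for the mean lux-1 effect and 5 to 8 for ZT13 against ZT1 in acd6-1lux-1. The edgeR alternative was chosen after seeing the data.

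Over all genes tested, the number called higher in lux-1 at ZT1 was 2855, against 1468 with median-of-ratios scaling, 1758 with quantile normalization, 1867 at an adjusted p under 0.05, 1275 with edgeR and 1223 to 3300 without 1 library. In acd6-1lux-1 at ZT1 it was 4935, against 2779 with median-of-ratios scaling, 2507 with only the compared libraries, 3227 with edgeR and 2919 to 6614 without 1 library. In acd6-1lux-1 at ZT13 it was 250, against 48 with only the compared libraries, 165 with edgeR and 147 to 328 without 1 library. For the mean lux-1 effect it was 4336, against 2084 with median-of-ratios scaling, 2822 with quantile normalization, 2182 with edgeR and 3193 to 5618 without 1 library. For the difference of the lux-1 effect between backgrounds it was 3474, against 1757 at an adjusted p under 0.05 and 1615 to 5166 without 1 library. Without 1 library, lux-1 at ZT13 gave 288 to 551 and ZT13 against ZT1 in acd6-1lux-1 4412 to 6318. The cause of these shifts was not tested.

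EXL5 at ZT1 in lux-1, at 0.0009, was −0.11 with a pseudocount of 0.1, −0.0048 with 0.5, −0.0146 with median-of-ratios scaling, −0.0639 with quantile normalization and −0.0587 with edgeR. The difference between backgrounds for GRP17 was −0.37, and 0.37 with edgeR. Without lux-1 ZT1 replicate 1 that difference turned positive for 7 genes, at 0.0657 to 0.35. Without 1 library, lux-1 at ZT1 ranged from 0 to 1.12 for GRP19, −0.0442 to 0.87 for GRP17, −0.0207 to 0.56 for GRP14, 0 to 1.02 for EXL4, −0.0783 to 0.067 for EXL5 and −0.0354 to 0.34 for EXL6. In the acd6-1 background at ZT1 it ranged from 0 to 0.46 for GRP19, −0.10 to 0.34 for EXL4 and −0.0633 to 0.11 for GRP14. The difference between backgrounds ranged from −0.81 to 0.30 for GRP19, −0.68 to 0.24 for GRP17, −0.51 to 0.0657 for GRP14, −0.83 to 0.19 for EXL4, −0.28 to 0.10 for EXL6, −0.79 to 0.35 for ATA27 and −1.03 to 0.21 for AT1G66850.

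Libraries with the same replicate number shared only a number, with correlations of their deviations from −0.22 to 0.18. With the replicate number as a block, 0, 0, 7, 8, 8 and 0 pollen coat genes passed in lux-1 at ZT1, acd6-1lux-1 at ZT1, acd6-1lux-1 at ZT13, the mean effect, ZT13 against ZT1 and the difference between backgrounds, as without it. With 1 to 10 reads over the 8 genes in several ZT1 libraries, small differences between those libraries were not detectable at this depth.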
